A study of Mus musculus with 16 samples.

Results

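Aortic resident macrophages were examined in single cell RNA sequencing of the mouse thoracic aorta. A cell counted as a macrophage when it held at least 5 unique molecular identifiers (UMIs, each standing for 1 captured RNA molecule) of C1qa, C1qb and C1qc together, at least 1 of Ptprc or Tyrobp, and fewer than 5 each of Myh11, which marks smooth muscle, and Dcn, which marks fibroblasts. By this rule 1734 of the 50858 cells kept in the series were macrophages (3.41%), and they carried 14766458 UMIs. Of 1981 kept cells with at least 5 C1q UMIs, 198 were set aside for Dcn, 24 for Myh11 and 46 for lack of a leukocyte UMI, and a cell could fail on more than 1 count. At the threshold itself, 5 macrophages held exactly 5 C1q UMIs, and 14 cells that met every other condition held 4.

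The study deleted Smad3, a transcription factor that carries TGF-β signals to the nucleus, in vascular smooth muscle cells (VSMCs) of adult mice. Smad3 flox/flox;Myh11-CreER mice and Smad3+/+;Myh11-CreER controls, all 129S6/SvEv males because the Cre transgene lies on the Y chromosome, received tamoxifen at 6 weeks of age, and are called Smad3SmKO and Smad3+/+. Live cells from the aortic root to the arch were collected 18 weeks post-deletion from 5 Smad3+/+ and 7 Smad3SmKO mice and 10 weeks post-deletion from 2 and 2, each mouse giving 1 library, in 6 batches. Some mice of both genotypes also carried a GFP tracer of Myh11-expressing cells. The Cre is driven by a smooth muscle promoter, so a difference between genotypes in macrophages is a difference in cells that the deletion was not aimed at.

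Tissue macrophages engulf dying cells and debris, present antigen and release chemokines and growth factors. In arteries, macrophages with the hyaluronan receptor LYVE1 lie mainly in the adventitia and are thought to renew locally, whereas macrophages rich in major histocompatibility complex class II (MHC II) present peptides to T cells and are replenished more from blood monocytes. C1q, the complement recognition molecule whose 3 chains are made from C1qa, C1qb and C1qc, is made by many resident macrophages and is used here to find them.

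At least 37 macrophages were found in every library except Smad3SmKO replicate 7 at 18 weeks, which had 2 and entered the shares of all cells but no gene fit. The median macrophage held between 3612 and 11905 UMIs. In every library some fibroblasts carried a C1qa UMI, between 0.564% and 5.67% of them, and whether these came from free RNA or from cells captured together was not tested. No macrophage barcode was shared by any of the 120 pairs of libraries. Digestion lasted 30 min in batches 1, 2 and 3 but 60 min in batches 4, 5 and 6, and all 10-week mice were in batch 4. Reads of Smad3 in macrophages (123 UMIs in all) come from the 3′ end of the transcript and cannot check the deletion, and the feature added by the authors for intact Smad3 had 0 UMIs in macrophages and in VSMCs, so the deletion was not checked here.

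The cells carried the transcripts of macrophages at high levels. C1qa, C1qb and C1qc (chromosome 4, 136895917 to 136898803, 136880129 to 136886187 and 136889804 to 136893065, build mm10) averaged 5558 ± 1526, 6102 ± 1385 and 3500 ± 734 UMIs per 1000000 UMIs of the summed macrophages (CPM, mean ± SD over 15 libraries), which the rule itself required. Lyz2, the myeloid lysozyme, averaged 9248 ± 3360 CPM in macrophages and 11.2 CPM in fibroblasts. Pf4, the chemokine platelet factor 4, averaged 1784 ± 829.3 CPM against 4.61 CPM. Csf1r, the receptor for the growth factor on which macrophages depend, stood at 745 ± 162 CPM and Adgre1, which encodes F4/80, between 165 and 495 CPM. The 5 marker genes given for these cells were all abundant, Lyz2 and Pf4 without having been used by the rule, which is a description with no test.

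Ranked by the ratio of macrophage CPM to that of all other kept cells, both plus 5 CPM, the 25 leading genes, C1q genes included, fell into recognisable groups. Chemokines were represented by Ccl12 (1550 ± 777 CPM), Ccl4 (3534 ± 2399 CPM) and Pf4. Surface proteins included Mrc1, the mannose receptor CD206 (693 ± 255 CPM), Ms4a7 (539 ± 146 CPM), Ms4a6b, Ms4a6c, Ms4a6d, Mgl2, a galactose-type lectin, Fcgr3, an Fc receptor, and Laptm5. Antigen presentation was represented by Cd74, the invariant chain (25025 ± 7530 CPM), H2-Eb1 (6512 ± 2771 CPM), H2-Aa (5718 ± 2105 CPM) and Ctss, the cathepsin that trims the invariant chain (1648 ± 380 CPM). F13a1, the coagulation factor XIII A chain, stood at 879 ± 353 CPM, and Aif1 and Gatm completed the list with Retnla. Retnla, a secreted protein of alternatively activated macrophages, varied widely, from 37.1 to 10805 CPM between libraries.

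Not all of these genes were equally restricted. Macrophages held 88.8% of the Ms4a7 UMIs of all kept cells, but only 64.2% of the Cd74 and 61.5% of the H2-Aa UMIs. They held 89.9% of the C1qa UMIs, a share that the rule largely set because it selects cells on C1q. Other leukocytes were kept cells with at least 3 UMIs of Ptprc and Tyrobp together and fewer than 5 of the C1q genes, of Myh11 and of Dcn. Their Cd74 level was 19830 ± 12352 CPM, which overlapped the macrophage level. Apoe, the apolipoprotein E gene, was high in macrophages (5710 ± 2339 CPM) and in fibroblasts (3862 CPM), so that macrophages held 5.67% of its UMIs. Igf1, an insulin-like growth factor, was lower in macrophages (151 ± 85.9 CPM) than in fibroblasts (531 CPM).

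Markers of other cell types ranged from absent to abundant. The T cell genes Cd3e, Cd3g and Trac and the mast cell gene Ms4a2 had 0 UMIs in all macrophages. The 8 dendritic cell markers had 19 UMIs of Flt3, 34 of Xcr1, 2 of Clec9a, 2 of Cd209a, 32 of Zbtb46, 3 of Itgae and 56 of Ccr7, while Naaa, a lysosomal amidase, had 1171 UMIs (76.7 CPM) and was found in every library. Of the B cell and plasma cell markers Ighm, the IgM heavy chain, had 2360 UMIs (158 CPM). Mgp (446 CPM) and Gsn (269 CPM) led the fibroblast markers and Acta2 (214 CPM) the VSMC markers. The summed level of the fibroblast markers ranged from 433 to 2506 CPM, that of the VSMC markers from 42.3 to 3676 CPM and that of the endothelial markers from 7.6 to 146 CPM between libraries. The source of these transcripts was not tested either.

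Macrophages made up a variable share of the aortic cells, which did not differ by genotype beyond the spread between mice. In the 18-week Smad3+/+ mice the share was 5.47%, 2.15%, 4.49%, 1.58% and 2.69% of kept cells (mean 3.28% ± 1.64, SD, n = 5). In the 18-week Smad3SmKO mice it ran from 0.317% through a median of 4.89% to 9.37% (mean 4.54% ± 2.76, n = 7). The Smad3+/+ range lay inside the Smad3SmKO range, with the lowest and the highest Smad3SmKO mouse outside it. The difference of 1.26 percentage points had p = 0.404 in an exact two-sided permutation test over 792 splits, and p = 0.306 when the 36 arrangements within batches were used. Within batches 1, 2, 3 and 6 the differences were -2.07, 4.88, 2.94 and 2.76 points. At 10 weeks the shares were 1.72% and 2.22% in Smad3+/+ and 2.78% and 1.10% in Smad3SmKO mice, where an exact permutation test of 2 against 2 cannot give a p below 0.333. For 1 library, counting error alone gave an exact 95% interval of 4.80% to 6.20% around the share of 5.47%, and such intervals cover counting error only. A share of captured cells depends on what dissociation releases, so fewer macrophages in the wall and fewer macrophages released cannot be told apart.

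**Figure D1:**
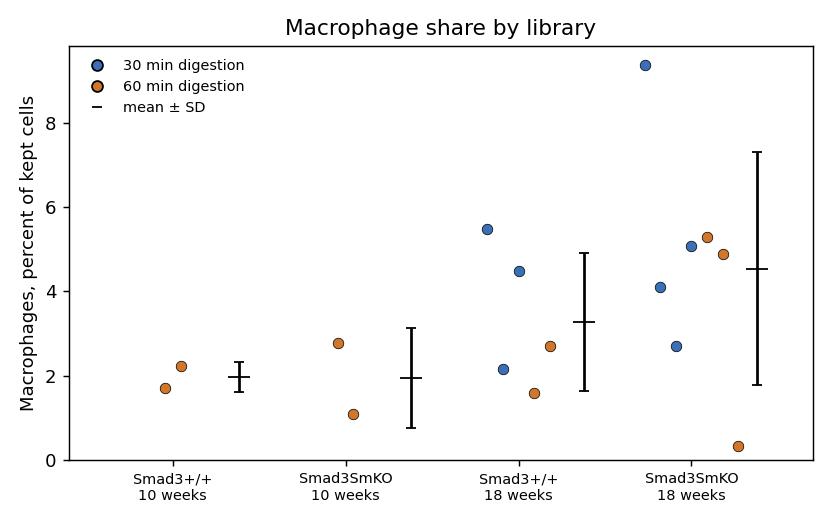
Share of kept cells that were macrophages (percent, vertical axis), 1 point per library coloured by digestion time, grouped by genotype and time, with mean and SD bars cut at 0. The 18-week Smad3SmKO mice spread from 0.317% to 9.37% around the whole Smad3+/+ range of 1.58% to 5.47%.

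Macrophages differed among themselves along an axis from LYVE1 to MHC II. After each cell was thinned to 2000 UMIs, a cell was placed on the Lyve1 side when it had at least 1 UMI of Lyve1, Folr2, Timd4 or Cd163, genes of resident macrophages, and fewer than 5 of H2-Aa, H2-Ab1, H2-Eb1 and Cd74. It was placed on the MHC II side when it had none of the former and at least 5 of the latter. The Lyve1 side held 299 cells (17.2%), the MHC II side 977 (56.3%), 380 (21.9%) passed both conditions and 78 (4.50%) neither. The gates divide a continuous range, since 71 macrophages had 3 or 4 and 30 had 5 or 6 of the MHC II UMIs, and 196 passed the resident condition with exactly 1 UMI. Median depth was alike on both sides, at 7213 UMIs on the Lyve1 side and 7187 on the MHC II side. The 8 gate genes differed because they set the gates, and they were left out of the tests between the sides.

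Among the 4902 other genes tested in the 8 libraries with at least 10 cells on each side, 1471 passed an adjusted p of 0.05 (percent called 30%), 726 higher and 745 lower on the Lyve1 side. Both sums came from the same mouse and the library was a block in the fit. Because the gates were set on the same cells' transcripts, genes that vary with the gate genes had to differ, and the values that follow describe what else travels with that axis. In 761 of the 1471 genes the direction was the same in all 8 libraries. The promoters of MHC II genes are shown first, because these genes define one end of the axis and are switched together by the coactivator CIITA, which acts through a conserved promoter module that ends in an inverted CCAAT letter sequence, the Y box. The RefSeq sequences (build GRCm38.p6) run from 250 bases before to 50 bases after the start of the gene, with every ATTGG and its reverse complement CCAAT in capitals. H2-Aa (chr17:34287774-34288073, minus strand) and H2-Eb1 (chr17:34305617-34305916, plus strand) set the gate, and H2-DMb1 (chr17:34152941-34153240, plus strand) did not.
H2-Aa: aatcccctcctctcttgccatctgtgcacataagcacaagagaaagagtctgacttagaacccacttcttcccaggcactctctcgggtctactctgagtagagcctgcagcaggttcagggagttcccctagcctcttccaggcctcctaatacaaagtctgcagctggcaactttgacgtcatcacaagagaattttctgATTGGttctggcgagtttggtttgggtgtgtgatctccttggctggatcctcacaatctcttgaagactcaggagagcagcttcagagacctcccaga
H2-Eb1: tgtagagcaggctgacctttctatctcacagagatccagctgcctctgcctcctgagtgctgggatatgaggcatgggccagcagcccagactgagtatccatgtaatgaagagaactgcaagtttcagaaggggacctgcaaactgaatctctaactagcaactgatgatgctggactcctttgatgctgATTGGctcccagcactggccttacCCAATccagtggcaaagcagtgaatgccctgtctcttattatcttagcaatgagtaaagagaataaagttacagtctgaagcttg
H2-DMb1: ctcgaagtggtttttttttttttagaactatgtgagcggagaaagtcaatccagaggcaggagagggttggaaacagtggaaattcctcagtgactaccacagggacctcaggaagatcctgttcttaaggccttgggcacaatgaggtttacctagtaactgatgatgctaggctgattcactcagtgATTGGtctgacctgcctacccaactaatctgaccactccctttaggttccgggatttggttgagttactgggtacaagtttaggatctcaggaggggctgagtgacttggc

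The letters ATTGG began 48 bases before the start of H2-Aa, 59 before that of H2-Eb1 and 61 before that of H2-DMb1, and CCAAT began 35 bases before that of H2-Eb1. On either strand ATTGG occurred in 12289 of 32851 RefSeq promoters of this length (37.4%), so its presence alone is common. The longer CTGATTGG, which contains it, occurred in H2-Aa and H2-Eb1 and in 1346 promoters (4.10%). H2-Eb1 and H2-DMb1 also shared a run of 13 letters, aactgatgatgct, which began 89 and 92 bases before their starts and was found in 3 of the 32851 promoters (0.00913%) on either strand. It was picked as the longest run that H2-Eb1 and H2-DMb1 share. Their promoters are therefore among the 3, and the count is no separate sign of rarity. H2-DMa, the other called gene of this pair, has 2 promoter entries (chromosome 17, 34122582 to 34122881 and 34125268 to 34125567). The first held no ATTGG, the second held it 198 bases before the start, and neither held CTGATTGG. Both lie inside the span given for the gene, 34119541 to 34139101. Whether macrophages use either start was not tested, so nothing follows about the promoter of H2-DMa in these cells. A match of letters is a description and not a bound site. H2-Ab1 is a further class II gene of the gate.

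Antigen presentation genes that had not set the gates were lower on the Lyve1 side. All 5 tested genes of the MHC II list fell, of 13 members with the gate genes counted. H2-DMb1, a chain of the exchange factor that loads peptide on MHC II, ranged from 35.6 through a median of 51.7 to 64.2 CPM on the Lyve1 side and from 779 through 897 to 1199 CPM on the MHC II side (log2 difference -4.20, SE 0.14, edgeR adjusted p = 3.5e-17). Its partner H2-DMa (chromosome 17, 34119541 to 34139101) ranged from 54.7 to 81.8 CPM and from 501 to 986 CPM (log2 difference -3.49, SE 0.14, edgeR adjusted p = 2.1e-15). The sides were far apart in every library for both genes. Reads of H2-DMb1 can be shared with its close copy H2-DMb2, so the level of each alone is uncertain. Ciita, the coactivator itself, had 0 UMIs among the Lyve1-side cells of the 8 libraries and was at least 32.4-fold lower there, a bound set at 3 counts over the side.

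Scavenging and clearance genes marked the Lyve1 side, in a comparison that called 30% of all genes tested. Of the list of efferocytosis and scavenger genes 11 rose and 2 fell among 14 tested (median log2 difference 1.61, against -0.00091 over all genes tested), and of the resident macrophage list 13 rose and 1, Mgl2, fell among 14 (median 3.03). Stab1, a scavenger receptor of endothelium and macrophages, ranged from 500 through a median of 792 to 1164 CPM on the Lyve1 side and from 52.2 through 140 to 213 CPM on the MHC II side (log2 difference 2.61, SE 0.13, edgeR adjusted p = 1.1e-13). F13a1 (chromosome 13, 36867178 to 37050244) was at 2395 ± 679 CPM against 236 ± 78.4 CPM (log2 difference 3.39, SE 0.15, n = 8). Mrc1 was at 1567 ± 363 against 305 ± 116 CPM. The values of all 3 genes were separate between sides in every library.

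Other receptors followed the same direction. Colec12, a scavenger collectin, was at 327 ± 128.5 against 38.3 ± 21.6 CPM, and Fcgrt, the neonatal Fc receptor that recycles IgG, at 1056 ± 357 against 273 ± 80.7 CPM. Vsig4, a complement receptor of resident macrophages, was at 238 ± 125 against 3.40 ± 5.06 CPM (log2 difference 6.35, SE 0.36). The lectins Cd209g and Cd209f (chromosome 8, 4134098 to 4137707 and 4102787 to 4105835) had 0 UMIs on the MHC II side and were at least 401-fold and 306-fold higher on the Lyve1 side, bounds set at 3 counts over the side. Cd209g was itself at 0 in 1 of the 8 libraries on the Lyve1 side. Gas6, the bridging ligand that links dying cells to the receptors MERTK and AXL, was at 820 ± 316 against 129 ± 77.8 CPM. Axl went the other way, at 18.3 ± 8.34 against 169 ± 53.9 CPM (log2 difference -2.86, SE 0.22), as did the integrin Itgb5 (log2 difference -0.79, SE 0.14). Mertk rose on the Lyve1 side (60.1 ± 32.5 against 13.02 ± 8.00 CPM, log2 difference 2.01, SE 0.29), so the receptors for this ligand lay on opposite sides.

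Several genes of other functions were among those with the lowest p on the Lyve1 side. Selenop, the plasma selenium carrier, was at 3864 ± 964 against 1206 ± 407 CPM, Igfbp4, an IGF-binding protein, at 707 ± 253 against 191 ± 65.6 CPM, and Tcn2, the vitamin B12 carrier, at 318.3 ± 81.5 against 89.6 ± 24.1 CPM. Ednrb, an endothelin receptor, was at 158 ± 120 against 6.21 ± 9.94 CPM. Fxyd2, a regulator of the sodium pump, Hal, the first enzyme of histidine breakdown, and Selenbp1 were also among them. Against 30% called over all genes tested, 8 of the 12 tested genes of the iron and heme list rose and 2 fell. Hmox1, which breaks down heme, was at 716 ± 345 against 215 ± 61.5 CPM (log2 difference 1.73), whereas Fth1, the ferritin heavy chain, was lower (log2 difference -0.49). Of the complement list 7 rose and 1 fell among 10, C4b being at 570 ± 295 against 42.3 ± 31.9 CPM.

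Secreted signals divided between the sides, with 30% called over all genes tested. In the chemokine list 6 genes rose on the Lyve1 side, Ccl8, Ccl6, Ccl9, Ccl24, Pf4 and the receptor Ccr1, and 4 fell, Cxcl16, Cxcl10 and the receptors Cx3cr1 and Ccr2, among 17 tested. Ccl8, an attractant of monocytes and T cells, varied widely, from 62.7 through a median of 1037 to 2395 CPM on the Lyve1 side, and was at most 129 CPM on the MHC II side (log2 difference 4.49). Pf4 was at 3551 ± 1032 against 963 ± 499 CPM. Among growth factors 7 rose and 4 fell of 14, with Igf1, Gas6, Grn and Pdgfc among the former. Tgfbr2, the type II TGF-β receptor, was the only gene of the TGF-β list that rose (235 ± 43.1 against 125 ± 29.8 CPM, log2 difference 0.91), while 6 of its 12 tested genes fell.

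Most inflammatory genes tested were higher on the MHC II side. Of the inflammatory list 13 of 17 tested genes were lower on the Lyve1 side and 0 higher by edgeR (14 had an unadjusted p under 0.05). The share called over all genes tested was 30%. Il1b, the interleukin-1β gene, ranged from 0 through a median of 7.92 to 139 CPM on the Lyve1 side and from 145 through 985 to 3997 CPM on the MHC II side (log2 difference -5.79, SE 0.57, edgeR adjusted p = 0.00014). Cxcl2, a neutrophil chemokine, was high on both sides, at 11610 ± 7640 and 27192 ± 20350 CPM (log2 difference -1.21). Ccr2, the receptor by which monocytes enter tissue, was at 5.48 ± 10.1 against 208.2 ± 118 CPM (log2 difference -5.22). Of the monocyte list 3 of 8 tested genes fell, Ccr2, Hp and Msrb1, a share near that called over all genes, and Fn1, S100a4, S100a6, Gsr and Thbs1 did not pass.

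The lipid list was split, with 5 genes higher and 8 lower on the Lyve1 side among 15 tested, against 30% called over all genes. Apoe was at 11947 ± 6050 against 3689 ± 1348 CPM, and Trem2, a lipid-sensing receptor, and the cholesterol exporter Abca1 also rose. Itgax, which encodes CD11c, fell from 44.9 ± 20.4 CPM on the MHC II side to 3.65 ± 5.51 CPM, and Lgals3, Fabp5, Lpl and Mmp12 fell with it. Mmp12, the macrophage elastase (chromosome 9, 7344381 to 7369499), ranged from 0 to 11.6 CPM on the Lyve1 side and from 141 to 672 CPM on the MHC II side (log2 difference -7.61, SE 0.31). Over all libraries 8 of the 299 Lyve1-side cells carried Mmp12, and 1 cell of a library outside the fit held 337 of their 364 UMIs. Other genes high on the MHC II side were Scimp, an adaptor that binds MHC II complexes, at 219 ± 75.2 against 14.5 ± 11.5 CPM, and Plbd1, Cytip, Dpys, Ramp1, Zmynd15, Bcl2a1a, Bcl2a1b and Bcl2a1d, of which the last 3 are near-identical copies whose separate levels are uncertain. Napsa and Tnip3 had 2 UMIs and 1 UMI on the Lyve1 side.

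Proliferation genes were also lower on the Lyve1 side, 8 of 12 tested. Top2a, a topoisomerase of dividing cells, was at 44.7 ± 40.3 against 141 ± 71.6 CPM, lower in 8 of 8 libraries. Mki67 was lower in 4 of 8 libraries (42.8 ± 16.7 against 87.5 ± 77.1 CPM, edgeR adjusted p = 0.0455). Lysosomal genes divided 11 to 6 among 20, proteases 3 to 4 among 13, and interferon genes 0 to 3 among 15. Over all genes tested 30% were called, and the interferon share was below that. The list of genes known to respond to tissue dissociation divided 4 to 4 among 20, a share not far above that of all genes, with a median of -0.02.

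Cells that passed both conditions lay between the sides for many genes but not for all. Of 259 named and listed genes with at least 20 CPM in 1 of these 3 gates, gate genes left out, their pooled level was between the sides in 185, above both in 39 and below both in 35. Pooled over libraries, F13a1 was at 2343 CPM on the Lyve1 side, 1289 CPM in the cells passing both, 211 CPM on the MHC II side and 431 CPM in the cells passing neither. H2-DMb1 was at 52.5, 455, 885 and 88.9 CPM in the same order. Retnla was higher in the cells passing both (3765 CPM) than on the Lyve1 side (1030 CPM) or the MHC II side (1073 CPM), as was Mgl2 (715, 301 and 607 CPM). Spp1, the osteopontin gene, was lower in them (48.8 CPM) than on the Lyve1 side (218 CPM) or the MHC II side (723 CPM). In the 8 libraries tested, however, Spp1 was at 62.3 CPM on the Lyve1 side (127 UMIs) and 1114 CPM on the MHC II side. Its pooled Lyve1-side level thus rested largely on cells of libraries outside the fit. These pooled levels have no replicate error and are given as a description.

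**Figure D2:**
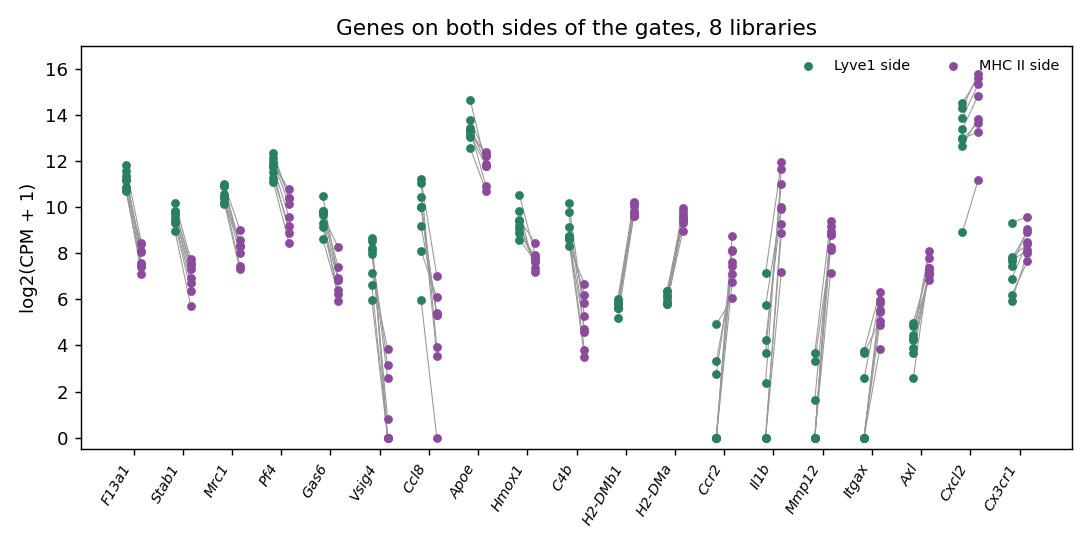
Levels as log2(CPM + 1) of 19 genes that did not set the gates, 1 point per library and side with a line joining the sides of the same library, for the Lyve1 side (green) and the MHC II side (purple) of the 8 libraries tested. H2-DMb1 sits between 35.6 and 64.2 CPM on the Lyve1 side and between 779 and 1199 CPM on the MHC II side.

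The share of macrophages on the Lyve1 side did not differ by genotype beyond the spread at 18 weeks. It was 20.4%, 8.57%, 15.6%, 19.6% and 8.41% in the Smad3+/+ mice (mean 14.5% ± 5.80, n = 5). In Smad3SmKO replicates 1 to 6 it was 4.35%, 39.0%, 31.7%, 19.0%, 10.6% and 2.83% (mean 17.9% ± 14.8, n = 6). The difference of 3.41 points had p = 0.630 in an exact two-sided permutation test and p = 0.556 within batches, where the 4 differences were 14.9, -11.3, 10.5 and -11.2 points. Leaving out Smad3SmKO replicate 2 turned it to -0.82 points. At 10 weeks the shares were 40.6% and 35.8% in Smad3+/+ and 22.5% and 13.5% in Smad3SmKO mice, which do not overlap, but 2 against 2 allows no p below 0.333 in an exact permutation test. Nor do the 4 libraries include more than 1 batch.

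**Figure D3:**
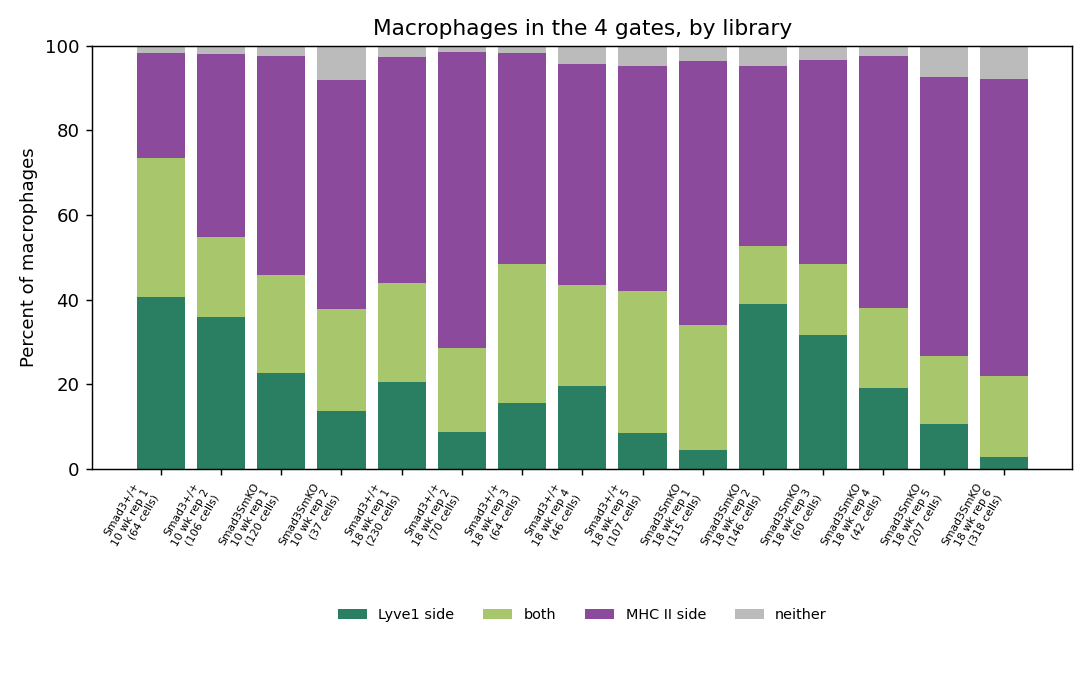
Stacked bars of the share of macrophages (percent) in each of the 4 gates, 1 bar per library with at least 10 macrophages, ordered by group. The Lyve1-side share of the 10-week Smad3+/+ mice (40.6% and 35.8%) lay above that of the 10-week Smad3SmKO mice (22.5% and 13.5%), whereas the 18-week genotypes overlapped.

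Within macrophages, the genotype contrast at 18 weeks called 1 of 9010 genes (percent called 0.0111%), while 124 had an unadjusted p under 0.05 and DESeq2 called 0. The count was 6 without a filter on low counts, 0 in the 30 min libraries and 105 in the 60 min libraries, where with batch in the fit the contrast rests on the 2 Smad3+/+ mice and 1 Smad3SmKO mouse (replicate 6) of batch 6. The gene was Csf3, which encodes granulocyte colony-stimulating factor, the growth factor of neutrophils (chromosome 11, 98701263 to 98703629). Its level was 0, 0, 1.20, 0 and 1.16 CPM in the Smad3+/+ mice and 1.58, 1.73, 0, 0, 15.7 and 76.9 CPM in Smad3SmKO replicates 1 to 6. Smad3SmKO replicates 5 and 6 stood above all others, and the remaining mice of both genotypes overlapped. The fitted log2 difference was 5.05 (SE 0.80, edgeR adjusted p = 0.040). Replicate 5 was the only library of batch 5 in the fit, and batch 5 held no Smad3+/+ mouse. With batch in the fit, its level therefore did not enter this difference. Smad3SmKO mice held 165 UMIs of it in all, of which 28 were in 4 of the 207 macrophages of replicate 5. In replicate 6, 5.35% of the macrophages carried it (17 cells), and 1 of them held 59 UMIs. Without Smad3SmKO replicate 6 the log2 difference was 1.58 with an edgeR adjusted p of 1. The call was also lost when Smad3SmKO replicate 2 (edgeR adjusted p = 0.064), Smad3+/+ replicate 4 (0.61) or Smad3+/+ replicate 5 (0.88) at 18 weeks, or either 10-week Smad3SmKO library (0.14 and 0.17), was left out. Without Smad3SmKO replicate 5 the gene no longer passed the filter on low counts and 0 genes were called by edgeR (94 with an unadjusted p under 0.05), and 2 genes were called without Smad3+/+ replicate 1 at 18 weeks. The transcript was not particular to macrophages in these mice, since fibroblasts of replicates 5 and 6 held 616 and 258 UMIs of Csf3 and other leukocytes of replicate 5 held 336. Both libraries were digested for 60 min. At 18 weeks Smad3+/+ replicate 5, also of 60 min, held 41 UMIs in fibroblasts and 40 in other leukocytes. Smad3SmKO replicate 7 of 60 min held 138 and 32, and Smad3+/+ replicate 4 of 60 min held 2 and 0. The 30 min libraries held at most 10 in fibroblasts and 2 in other leukocytes. The part of digestion was not tested. Replicate 6 was also the library with the highest summed inflammatory genes (96873 CPM) and fibroblast markers (2506 CPM) in its macrophages, and the part of these in the result was not tested.

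Genes with the lowest p after Csf3 did not pass the test, each with an edgeR adjusted p of 1.00. Qpct, an enzyme that cyclises N-terminal glutamine of chemokines and other peptides, was at 22.2, 36.7, 21.5, 27.3 and 26.7 CPM in Smad3+/+ mice and at 7.1, 5.8, 2.9, 22.9, 17.4 and 14.0 CPM in Smad3SmKO mice (log2 difference -1.35, SE 0.32). In Smad3SmKO mice 5 of 6 values lay below every control, and the mean was lower in each of the 4 batches that held both genotypes. Pdpk1, a kinase that activates AKT, was at 26.8 ± 5.78 CPM against 15.1 ± 4.11 CPM, with 5 of 6 below every control as well. At 10 weeks Qpct was at 22.8 and 62.7 CPM in Smad3+/+ and at 57.7 and 30.2 CPM in Smad3SmKO mice, with no such separation. Cd209b, a lectin (log2 difference -2.30), Rpl39l (-4.03) and the MHC class I gene H2-Q6 (-0.75), which has near-identical relatives, had lower fitted levels. Fitted levels were higher for Il10, an anti-inflammatory cytokine (1.96), the protease inhibitor Serpine2 (1.73), Igfbp6 (1.13) and the adaptor Samsn1 (0.78).

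None of the gene lists held a further called gene at 18 weeks by edgeR. The interferon list had the highest median, with 19 of 20 fitted values above 0 and a median log2 difference of 0.70, against 0.0053 over all genes, and 2 members had an unadjusted p under 0.05. Its summed level was, however, 4534 CPM in Smad3SmKO replicate 6 and between 940 and 2274 CPM in the other 18-week mice of both genotypes, which overlapped. The resident macrophage list had 4 of 18 fitted values above 0 (median -0.22), the MHC II list 7 of 13 (median 0.002) and the TGF-β list 10 of 18 (median 0.041). Smad3 itself was at 2.3 to 14.4 CPM in the macrophages of 18-week mice (log2 difference 0.25, SE 0.42).

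**Figure D4:**
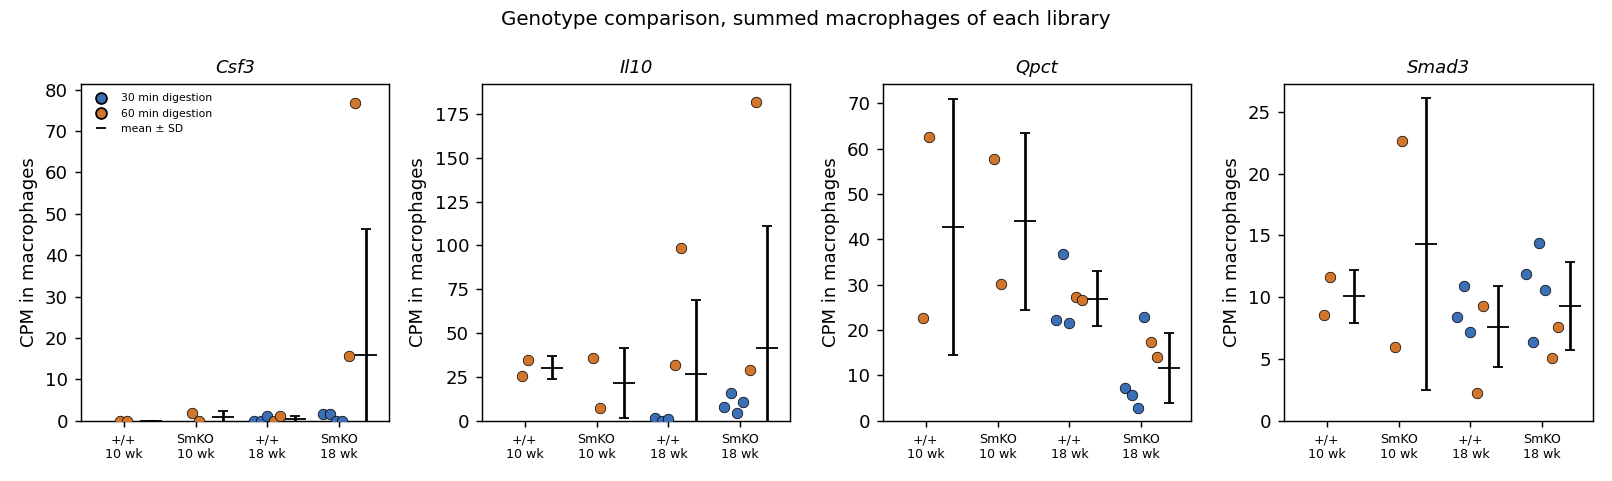
Levels (CPM) of Csf3, Il10, Qpct and Smad3 in macrophages, 1 point per library coloured by digestion time and grouped by genotype and time, with mean and SD bars cut at 0. The Csf3 point of Smad3SmKO replicate 6 stands at 76.9 CPM while all Smad3+/+ points are at or below 1.20 CPM.

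At 10 weeks 0 of 9010 genes passed by edgeR (percent called 0%), 302 had an unadjusted p under 0.05 and DESeq2 called 1, as edgeR did without Smad3SmKO replicate 1. The genes with the lowest p included Slc40a1, the iron exporter ferroportin, which was at 34.1 and 30.2 CPM in Smad3+/+ mice and at 0 and 0 CPM in Smad3SmKO mice, Susd3, Irs2, Cope and Adm among lower and Lockd, Haus1, Tagap and Orc4 among higher fitted values, all with an edgeR adjusted p of 1. For the resident macrophage list 1 of 18 fitted values lay above 0 (median -0.78), and its summed level was 9044 and 5913 CPM in Smad3+/+ and 4774 and 4793 CPM in Smad3SmKO mice. The MHC II list leaned the other way (11 of 13 above 0, median 0.41), with sums of 21438 and 37831 CPM against 43369 and 44119 CPM. Neither pair of sums overlapped, as the gate shares above also did not. The sums and the gate shares rest on the same 4 libraries, and both lists include genes that set the gates. They are therefore not separate results. The median of all genes was -0.035. Cell cycle genes had 11 of 12 fitted values above 0 (median 0.95). The VSMC markers summed to 1232 and 520 CPM in the macrophages of the Smad3+/+ mice and to 884 and 3676 CPM in those of the Smad3SmKO mice. The endothelial markers summed to 45.5 and 16.2 CPM against 49.8 and 98.1 CPM, which do not overlap, with 6 of 7 fitted values above 0 (median 4.62) and 0 called by edgeR (0 with an unadjusted p under 0.05). The part of either in these results was not tested.

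The effect of genotype was not shown to differ between times for any gene. By edgeR 0 of 9010 genes passed for the difference of the 18-week and 10-week effects (percent called 0%), with 275 at an unadjusted p under 0.05 and 1 call by DESeq2. Slc40a1 was among the genes with the lowest p, with a log2 difference between genotypes of 0.92 (SE 0.68) at 18 weeks and 0 UMIs in both 10-week Smad3SmKO libraries. Susd3, Wdr12, Ms4a4a, Irs2, Tagap, Lockd, Haus1 and Tcf3 were others named by p.

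Whether the 18-week effect differed between macrophages and fibroblasts of the same mice was tested for 15384 genes. In all 41 passed (percent called 0.267%), 9 with a higher and 32 with a lower genotype difference in macrophages, and DESeq2 called 0. Of the 39 of these also tested in macrophages alone, 5 had an unadjusted p under 0.05 for genotype in macrophages. The fitted difference was larger in size in fibroblasts for 23. None of the genes with a value in fibroblasts alone passed there, the lowest edgeR adjusted p for genotype being 0.59 (Glipr1). Il1b, which was named after its value was seen, had fitted log2 differences of -0.35 in macrophages and 1.49 in fibroblasts, with mean levels of 993 and 17.6 CPM. Leaving out Smad3SmKO replicate 5 at 18 weeks left 2 calls, and leaving out Smad3SmKO replicate 1 at 10 weeks left 7. Without Smad3SmKO replicate 6 at 18 weeks 20 were left, and without Smad3+/+ replicate 1, Smad3+/+ replicate 2 or Smad3SmKO replicate 4 at 18 weeks there were 80, 69 and 70.

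Libraries digested for 60 min and for 30 min had different macrophage transcripts at 18 weeks. Of 7751 genes 227 passed (percent called 2.93%), 190 higher and 37 lower after 60 min, with genotype in the fit. Every batch had 1 digestion time, so digestion and batch cannot be told apart and p-values over libraries are too small. Without Smad3SmKO replicate 6 the count was 65, and without Smad3+/+ replicate 4 it was 143. Kdm6b, a histone H3 lysine 27 demethylase induced in activated macrophages (chromosome 11, 69398508 to 69413675), ranged from 44.6 to 114 CPM in the 7 libraries of 30 min (mean 87.5 ± 23.5) and was at 360, 470, 281 and 521 CPM in the 4 of 60 min (log2 difference 2.20, SE 0.22, edgeR adjusted p = 0.00015). In the 10-week libraries, also digested for 60 min and outside this test, it was between 332 and 426 CPM. The 2 digestion times thus did not overlap for this gene in any library.

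Inflammatory genes were the list with the most calls. Of 18 tested 8 rose and 0 fell by edgeR (17 had an unadjusted p under 0.05, and 18 of 18 fitted values were above 0), with a median log2 difference of 1.70 against -0.042 over all genes. Cxcl2 went from 7434 ± 3102 to 34844 ± 21373 CPM (log2 difference 2.20) and Cxcl1, a related chemokine, from 745 ± 436 to 4508 ± 2254 CPM. Nlrp3, the inflammasome sensor, went from 73.1 ± 21.4 to 285 ± 116 CPM. Il6, Tnfaip3, Il1rn, Icam1 and Il10 also rose. Il10 was at 5.87 ± 5.75 against 85.4 ± 71.8 CPM, but between 7.55 and 35.8 CPM in the 10-week libraries. For Il1b (687 ± 562 against 2094 ± 805 CPM, edgeR adjusted p = 0.16) and Tnf (400 ± 225 against 1126 ± 424 CPM, edgeR adjusted p = 0.073) the test was not passed.

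Other groups rose in smaller numbers, in a comparison that called 2.93% of all genes tested. Protease and inhibitor genes that rose were Timp1 (19.1 ± 11.7 against 112 ± 25.2 CPM), the urokinase genes Plau and Plaur, and Ctsl. Growth factor genes that rose were Hbegf, Areg and Il10. Of the 20 genes known to respond to dissociation 3 rose, Junb, Jund and Ier3, whereas Fos (2033 ± 498 against 2017 ± 868 CPM), Jun and Egr1 did not pass. Insig1, a regulator of cholesterol synthesis, Maff, Rel, a subunit of NF-κB, Sqstm1, the autophagy receptor p62, Tiparp, Sde2, Ccrl2, Ifrd1, Errfi1, Cirbp, Slc39a1, Hilpda, Mfap4 and Ndufa3 were the other genes with the lowest p among those that rose.

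Genes lower after 60 min included Txnip, a thioredoxin-binding protein (381 ± 84.2 against 194 ± 35.2 CPM), Tsc22d3, a glucocorticoid-induced leucine zipper gene (705 ± 252 against 242 ± 71.1 CPM), and ribosomal genes such as Rpl12 (1281 ± 249 against 685 ± 87.6 CPM), Rpl5, Rps25 and Rack1. Klhl6, Tnfaip8l2, Cnn2, BC017643, Gusb, Nuak2, 9930111J21Rik2, Hirip3 and Apobec1 fell with them. No member of the resident macrophage list (0 of 18, 3 with an unadjusted p under 0.05) or of the MHC II list (0 of 11, 3 with an unadjusted p under 0.05) was called by edgeR. Cell cycle genes had 0 of 12 fitted values above 0 (median -1.14), and 0 were called by edgeR. Only 4 of the 10 VSMC markers passed the filter on low counts, and all 4 rose. Of the 10 fibroblast markers 9 were tested and 3 rose. A low gene can pass the filter through the libraries where it is high, so 4 of 4 does not speak for the VSMC list. Some transcripts of other cells thus differed between the digestion times, which cannot be told apart from batch. Their part was not tested.

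**Figure D5:**
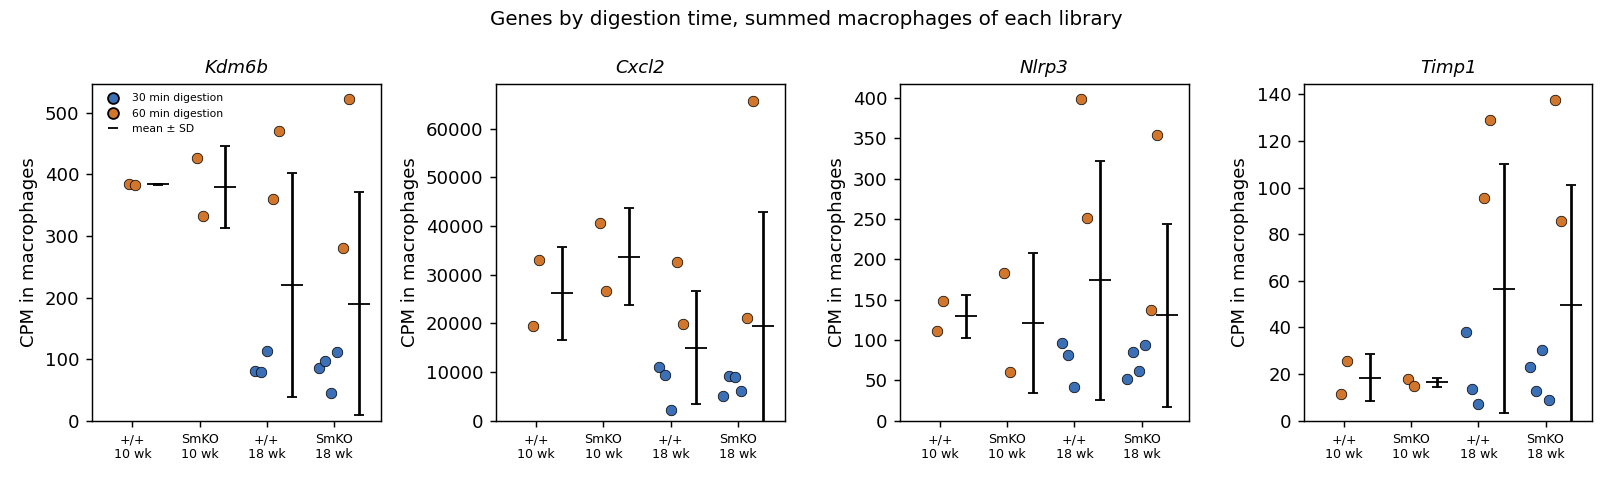
Levels (CPM) of Kdm6b, Cxcl2, Nlrp3 and Timp1 in macrophages, 1 point per library coloured by digestion time and grouped by genotype and time post-deletion, with mean and SD bars cut at 0. Kdm6b lies between 44.6 and 114 CPM after 30 min and between 281 and 521 CPM after 60 min at 18 weeks.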

How the data were processed

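Libraries were made with the 10x 3′ chemistry from sorted viable aortic cells, 1 mouse each, and the authors deposited raw UMI counts per gene and cell for 16 libraries (66349 cells, 508775009 UMIs, 31055 features). The submitters' processing notes name Cell Ranger 6, Seurat 4 and build mm10. Cells with 600 to 6000 genes, 2000 to 50000 UMIs and under 25% mitochondrial UMIs were kept. No doublet caller was run, and doublets were limited by the UMI cut and the limits on Myh11 and Dcn. The deposited counts were summed over the macrophages of each library and tested with edgeR 4.0.16 in R 4.3.3 (quasi-likelihood, TMM, filterByExpr, Benjamini-Hochberg), with batch as a covariate, or the library as a block for the gates. Macrophage libraries held between 139718 and 2518930 UMIs, which limits low genes. DESeq2 1.42.0, no filter, other gates, other cell limits, subsets by digestion time and leaving out each library were the alternatives. CPM of single libraries carry the TMM factors, and CPM compared with other cell types do not. Shares were tested by exact permutation with Python 3.11.15. The scripts were tested on simulated data.

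Named genes were those past the adjusted threshold, the 5 lowest p in each direction where fewer than 10 passed, the 15 lowest p in each direction for gates and digestion among genes of at least 20 CPM, the 25 highest ratios of macrophages to other cells, and members of the lists. Some genes that this rule names are not reported here. The members and lists were chosen with earlier results of these data known. Promoters were matched by symbol in RefSeq (GRCm38.p6), which gave 5 entries for 4 class II genes.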

Additional observations from a re-analysis of the deposited data

Results flagged for a closer look

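In 40 groups of 4 to 10 libraries, 7 held a library whose distance to its nearest neighbour was large for the range of the group by Dixon's criterion. Chance marks about 1 group in 20 where groups are independent and not picked from the data. The genes below were picked for a low p in the 18-week genotype contrast of the same libraries. The count therefore cannot be set against that rate. In the 18-week Smad3SmKO mice, replicate 6 stood apart with 76.9 CPM of Csf3, 182 CPM of Il10, 85.1 CPM of Igfbp6 and 362 CPM of Samsn1. Replicate 4 stood apart with 1.76 CPM of Rpl39l, and replicate 1 with 29.6% of its macrophages passing both gate conditions. Among the 18-week Smad3+/+ mice, replicate 2 stood apart with 70.0% of its macrophages on the MHC II side.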

How the results depend on the processing

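The gate comparison kept between 1113 and 1575 calls when each library was left out. The 18-week genotype count of 1 became 0 with DESeq2, 6 without a filter on low counts, 0 with Dcn and Myh11 under 2 UMIs, 0 without a batch term, 0 in the 30 min libraries and 105 in the 60 min libraries, and 0 to 2 with each library left out. Csf3 stayed above 0 under the 24 alternatives in which it was tested and passed under 15. The 10-week count of 0 became 1 with DESeq2 and 0 to 1 with each library left out. The count for the difference between times became 1 with DESeq2 and 3 without a filter, and was 0 with each library left out. The macrophage and fibroblast count of 41 became 0 with DESeq2, 25 without a filter, and 2 to 80 with each library left out. The digestion count of 227 became 482 with DESeq2, 701 without a filter, 118 with sums over batch and genotype, and 65 to 295 with each library left out, the lowest without Smad3SmKO replicate 6. The 18-week Lyve1-side share difference turned to -7.26 points in the 60 min libraries, and ran from -0.82 to 6.42 with each library left out. The macrophage share difference ran from 0.454 to 1.96 points at 18 weeks and from -0.871 to 0.816 at 10 weeks. The cause of these changes was not tested. No paired analysis was possible because the labels give the genotypes compared no shared replicate numbers, and batch entered those fits as a covariate, whereas the gate and fibroblast fits had the library as a block. Fits over all 16 libraries, chosen after seeing the data, kept the same side for the genotype results at both times and for their difference.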

Other observations

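A pair of gate shares was compared between genotypes after seeing the data. Cells passing both conditions made up 26.8% ± 6.10 of Smad3+/+ and 19.0% ± 5.56 of Smad3SmKO macrophages at 18 weeks, a difference of -7.75 points (exact two-sided permutation p = 0.0606 over all splits and 0.0278 within batches, 0.0556 when adjusted over the 4 gates), lower in 4 of 4 batches (-8.30, -3.25, -0.952 and -9.60 points). The direction depended on the gate setting. With gates on unthinned counts the Smad3SmKO share was higher in batch 3 (50.0% against 25.7%) and batch 2 (49.6% against 48.4%). It was lower in batches 1 and 6. With an MHC II limit of 10 it was 28.7% against 28.1% in batch 2 and 18.2% against 15.2% and 30.8% in batch 6. It was lower in batches 1 and 3. With the gates described above, cells passing neither were 1.93 points higher in Smad3SmKO mice (exact two-sided permutation p = 0.152 over all splits and 0.0278 within batches, 0.0556 adjusted). Within batches 36 arrangements were possible, and 0.0278 is the smallest p they can give, so a failure to pass after adjustment within batches says little. Over all 462 splits, which allow smaller p, the exact permutation p adjusted over the 4 gates was 0.242 for both and 0.303 for neither, and neither passed.

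The tracer label and the GFP transcript differed in 4 libraries. GFP had 2 UMIs in macrophages and 1570 in other kept cells, in 7 libraries. Both 10-week Smad3SmKO libraries carry no tracer label and had GFP UMIs, whereas Smad3+/+ replicates 4 and 5 at 18 weeks are labelled Myh11-GFP and had 0.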
